A study of Homo sapiens with 12 samples.

Results

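Transcript levels of 10 genes were followed in human embryonic stem cells: the AP-2 transcription factor genes TFAP2A, TFAP2B and TFAP2C, the GATA factor genes GATA2 and GATA3, and HAND1, NR2F2, ISL1, CDH10 and ELF3, which are used to recognise trophoblast, amnion and related early lineages. They were taken by symbol from the expression tables, and all 10 were found among the 23615 gene symbols of each table. Human trophoblast, the outer layer that forms the placenta, uses AP-2 and GATA factors to switch on its genes, and BMP signalling can push human embryonic stem cells towards trophoblast-like or amnion-like fates. Amnion, the membrane around the embryo, shares many of these regulators and also uses ISL1 and HAND1. TFAP2C is in addition known as a regulator of naive human pluripotency and of primordial germ cells, so it marks no single lineage.

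Poly(A) RNA was sequenced from manually picked colonies of 2 established human embryonic stem cell lines, labelled RUES-2 and H9, each in a naive and in a primed state, with 3 libraries in each of 4 groups (n = 3). Naive RUES-2 (passages 24 to 26) and naive H9 (passages 27 to 31) were kept with CHIR99021 at 3 µM, which inhibits GSK3, and PD0325901 at 1 µM, which inhibits MEK, together with LIF at 20 ng/mL, glucose at 5 mM and insulin at 18 µg/mL. Primed RUES-2 (passages 30 to 33) and primed H9 (passages 31 to 35) grew on mouse embryonic fibroblasts treated with mitomycin C, with 4 ng/mL bFGF. The study is titled as naive pluripotency reached by transient mTOR inhibition, but no mTOR inhibitor appears in the sample labels. GSK3 inhibition by CHIR99021, which stabilises beta-catenin, was thus part of the naive condition and of no primed one. State and medium cannot be told apart.

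Values are FPKM, fragments scaled by transcript length and by the mapped fragments of the library, as deposited. Between 12681 and 13593 genes per library reached 1 FPKM, and the depth of the deepest library was 2.15 times that of the shallowest, as estimated from the confidence bounds. POU5F1, the core pluripotency factor, lay between 416.6 and 982.6 FPKM in all 12 libraries, and naive markers were mixed. DNMT3L had 25.3 to 74.7 FPKM in naive RUES-2, against 0.308 to 1.2 FPKM in primed RUES-2, and 9.43 to 16.7 FPKM in naive H9, against 0.0953 to 0.888 FPKM in primed H9, and KLF2, SUSD2 and FGF4 also rose in both lines, whereas KLF17 and ESRRB did not pass 0.174 FPKM in any naive library. A check for exchanged samples set 3 of the 12 libraries apart from the rest of their line label, and 0 of these carried the label H9. The comparison of states in H9 uses the means of H9 libraries alone, with an error shared over all 4 groups, and every other direction holds for the labels as given. The comparison of states in RUES-2, that of the naive groups and the difference between the lines have no value without these 3 libraries. Replicates are described as biological, but separate cultures are not mentioned, and a p-value therefore reflects only how far these libraries scatter, which may be technical.

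The comparison of the states asked how the naive cells differed from the primed cells of each line. In libraries labelled RUES-2, HAND1, NR2F2, ISL1 and CDH10 rose and GATA3 fell. In H9, HAND1, CDH10, TFAP2A and TFAP2C rose and no gene of the 10 fell. HAND1 and CDH10 were thus called in both lines, and GATA3 was the single gene whose change differed between the lines by the test of that difference. Differences are given as naive minus primed on the log2(FPKM + 1) scale, which understates the change of genes of low level, with adjusted p-values from limma over 14429 genes, called under 0.05.

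Of the 8 genes that reached 1 FPKM in at least 3 libraries and so entered the test, 4 rose and 1 fell in libraries labelled RUES-2, where 23.1% of all genes tested rose and 23.7% fell (46.8% in either direction). In H9, 4 rose and 0 fell, against 20.4% and 23.9% of all genes (44.3% in either direction). The difference between the lines was called for 1 of the 8, against 5.7% of all genes (3.77% with a positive and 1.93% with a negative difference). These counts are a description of 8 genes, because GATA3 reached 1 FPKM only in the 3 primed RUES-2 libraries, ISL1 only in the 3 naive RUES-2 libraries and CDH10 only in the 6 naive libraries, and a gene that enters the test in that way had to differ. With no filter GATA3, ISL1 and CDH10 had adjusted p = 0.0034, 0.00432 and 7.55e-05 by limma in libraries labelled RUES-2. The same values entered that fit, so it is no separate support for these calls.

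**Figure D1:**
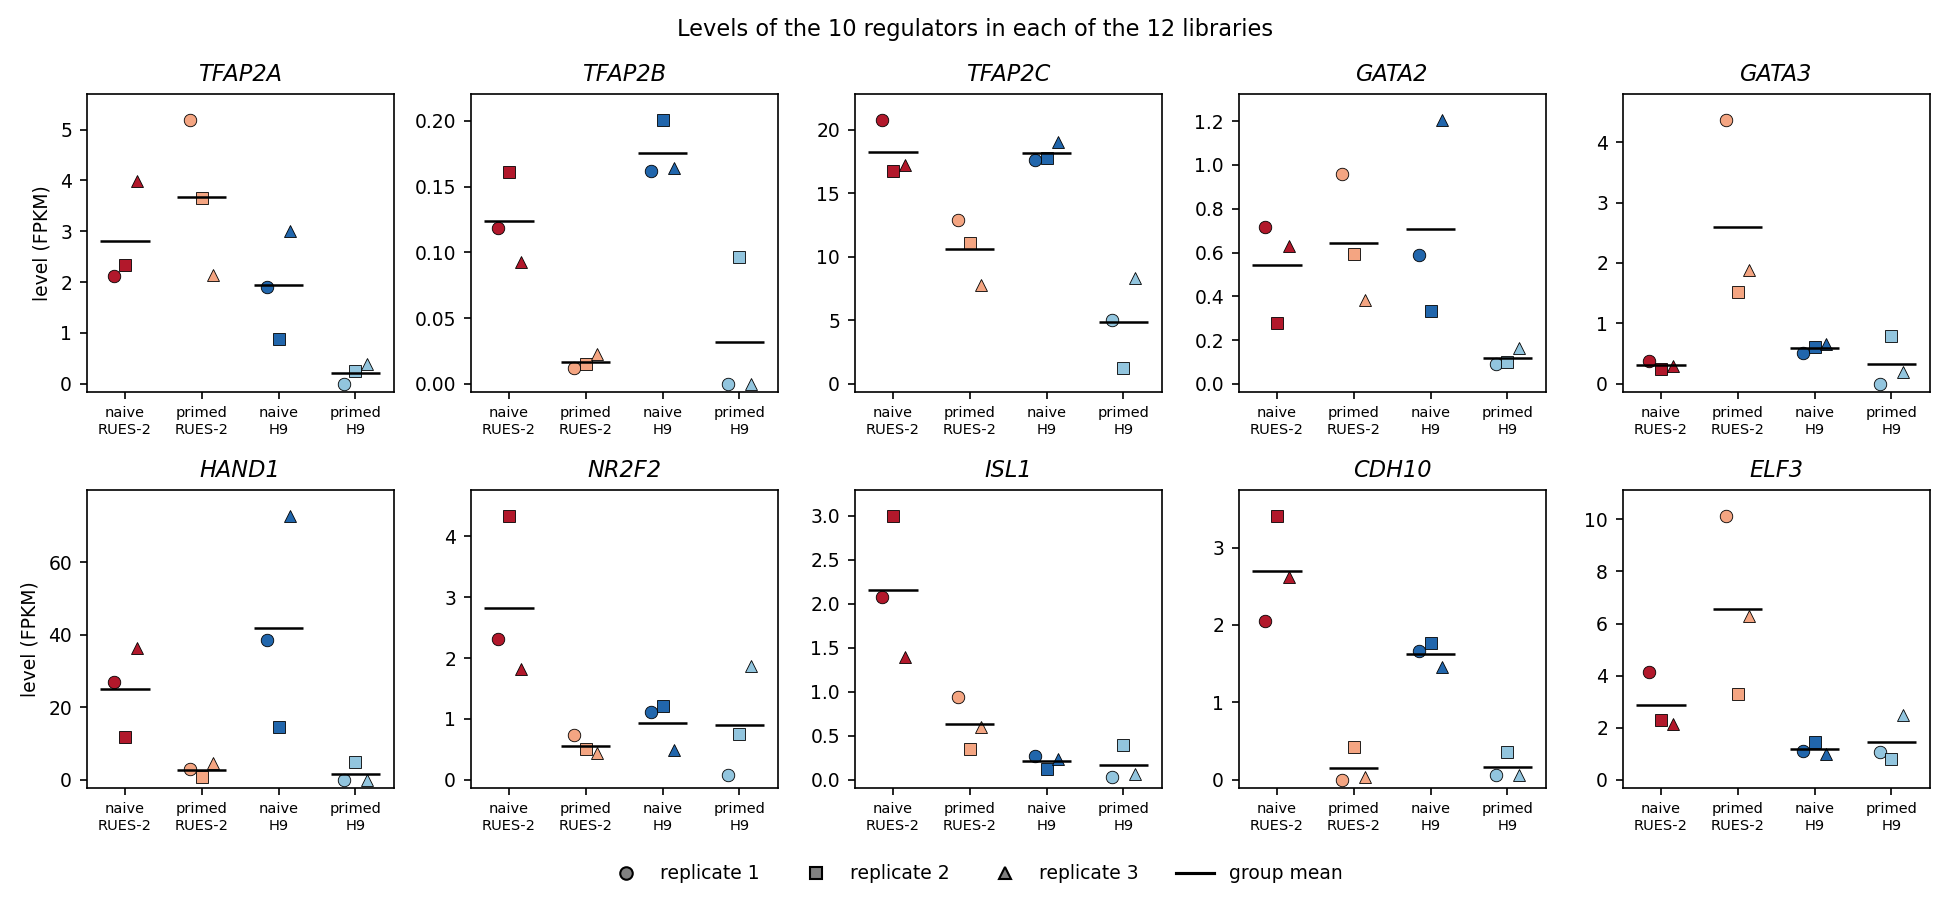
Level in FPKM (y axis, a separate linear scale for each gene) of the 10 genes in the libraries of each group (x axis), with 1 point for each library, shaped by replicate number, and a bar at the group mean. HAND1 and CDH10 lie higher in every naive library than in every primed library of the same line, GATA3 is highest in primed RUES-2, and ISL1 is highest in naive RUES-2.

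HAND1 encodes a basic helix-loop-helix factor needed for trophoblast giant cells and the heart in mouse, and it marks amnion and extraembryonic mesoderm in primates. It lies on chromosome 5, at 153854532 to 153857824 of hg19. Its level was 26.9, 11.9 and 36.4 FPKM in the naive RUES-2 libraries, against 3.02, 0.712 and 4.61 FPKM in the primed RUES-2 libraries. It was 38.6, 14.5 and 72.7 FPKM in the naive H9 libraries, against 0.046, 4.82 and 0.0362 FPKM in the primed H9 libraries. The states did not overlap in either line, and in both naive groups replicate 3 was highest and replicate 2 lowest. In naive H9 the mean exceeded that of 91.6% of all symbols, which made HAND1 the most abundant of the 10 genes there, whereas 2 of the 3 primed H9 libraries had a lower confidence bound of 0.

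HAND1 rose in naive libraries labelled RUES-2 by 2.82 (SE 0.785, adjusted p = 0.0138 by limma) and in naive H9 by 4.27 (SE 0.785, adjusted p = 0.0016). The difference between the lines was -1.45, with a 95% interval of -3.92 to 1.01, and was not called (adjusted p = 0.501). The RUES-2 call ended with a pseudocount of 0.1 (adjusted p = 0.0547) or without primed RUES-2 replicate 2 (0.0526), in a range of 0.00467 to 0.0547 over all alternatives. The H9 call held under all 23 alternatives (adjusted p 0.000414 to 0.00923). In bulk RNA, a larger share of cells with HAND1 and more HAND1 RNA per cell cannot be told apart, and the same is true of every gene below.

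CDH10 encodes a type II classical cadherin, a cell adhesion molecule, and lies on chromosome 5, at 24487209 to 24645085 of hg19. It had 2.05, 3.41 and 2.63 FPKM in naive RUES-2, against 0, 0.429 and 0.0388 FPKM in primed RUES-2. It had 1.66, 1.76 and 1.45 FPKM in naive H9, against 0.0655, 0.354 and 0.0686 FPKM in primed H9. Every naive library was above every primed library in both lines, and replicate 2 was the highest of the libraries in each of the 4 groups. CDH10 rose by 1.68 in libraries labelled RUES-2 (SE 0.175, adjusted p = 4.49e-05 by limma) and by 1.18 in H9 (SE 0.175, adjusted p = 0.000436), calls that held under every alternative in which CDH10 was tested. CDH10 passed the filter only through the naive libraries, so it had to differ and these calls are a description. In 2 libraries of each primed group its lower confidence bound was 0. Between the lines, CDH10 differed by 0.48 in the naive state (adjusted p = 0.0927) and by -0.02 in the primed state (0.982), neither of which was called.

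The promoters of HAND1 and CDH10 are shown because these were the genes called in both lines. Each stretch runs from 250 bases before to 50 bases after the RefSeq start, on build GRCh38.p14, and is the minus strand read 5′ to 3′. Capitals mark matches on either strand to the AP-2 motif GCCNNNGGC, the GATA motif AGATAA or the TCF/LEF motif CTTTGAT, the site of the factors through which beta-catenin acts.
HAND1 promoter, chr5:154478178-154478477: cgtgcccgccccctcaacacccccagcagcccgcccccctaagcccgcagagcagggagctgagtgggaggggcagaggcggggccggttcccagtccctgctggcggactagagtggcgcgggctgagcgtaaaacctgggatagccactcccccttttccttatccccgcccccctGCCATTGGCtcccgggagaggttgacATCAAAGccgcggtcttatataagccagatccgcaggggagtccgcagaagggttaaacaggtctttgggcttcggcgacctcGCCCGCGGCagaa
CDH10 promoter, chr5:24644929-24645228: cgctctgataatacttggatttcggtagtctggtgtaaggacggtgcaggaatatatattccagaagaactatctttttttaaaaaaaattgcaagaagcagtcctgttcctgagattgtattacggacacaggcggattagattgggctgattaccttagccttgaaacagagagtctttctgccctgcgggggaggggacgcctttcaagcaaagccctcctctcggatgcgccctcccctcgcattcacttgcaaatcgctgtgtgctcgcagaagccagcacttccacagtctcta
The HAND1 stretch held 2 AP-2 matches and 1 TCF/LEF match, which does not overlap them, and no GATA match. The CDH10 stretch held none of the 3 motifs and has a GC content of 48.3%, against 66% in HAND1. Of 35116 promoters of this length in the table, 23.2% held the AP-2 motif, 10.3% the GATA motif and 2.62% the TCF/LEF motif. A match describes the letters and is not evidence of binding. Promoters of 9 of the 10 genes were in the table.

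Of the 3 AP-2 genes followed, TFAP2C and TFAP2A reached 1 FPKM. TFAP2C, on chromosome 20 at 55204358 to 55214338 of hg19, had 20.8, 16.8 and 17.3 FPKM in naive RUES-2, against 12.9, 11.1 and 7.82 FPKM in primed RUES-2. In naive H9 it had 17.7, 17.8 and 19.0 FPKM, against 5.04, 1.26 and 8.34 FPKM in primed H9. The 6 naive libraries lay close together, between 16.8 and 20.8 FPKM, and above all 6 primed libraries, whose lowest value was that of primed H9 replicate 2. TFAP2C rose by 1.93 in H9 (SE 0.404, adjusted p = 0.00338 by limma), and in libraries labelled RUES-2 the difference of 0.75 was not called (95% interval -0.14 to 1.65, adjusted p = 0.151). It was called there without primed H9 replicate 2 (adjusted p = 0.00974), whose spread enters the shared error, and in a fit of the RUES-2 libraries alone (0.0162), in a range of 0.00974 to 0.343 over the alternatives. Between the naive groups TFAP2C differed by 0.00 (95% interval -0.89 to 0.90, adjusted p = 0.998).

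TFAP2A acts in trophoblast, surface ectoderm and neural crest and lies on chromosome 6, at 10396916 to 10419797 of hg19. It had 2.12, 2.33 and 4.0 FPKM in naive RUES-2, against 5.19, 3.66 and 2.15 FPKM in primed RUES-2. It had 1.91, 0.885 and 3.01 FPKM in naive H9, against 0, 0.255 and 0.381 FPKM in primed H9. The states overlapped in RUES-2 and stood apart in H9, where primed H9 was the lowest of the 4 groups. TFAP2A rose in naive H9 by 1.22 (SE 0.315, adjusted p = 0.01 by limma) and differed by -0.27 between the states of RUES-2 (95% interval -0.97 to 0.43, adjusted p = 0.513). The difference between the lines, -1.49, was not called (adjusted p = 0.0823). An uncharacterised entry, LOC100130275, overlaps TFAP2A and did not pass 0.298 FPKM in any library, and with no strand given for the libraries its reads and those of TFAP2A cannot be told apart.

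TFAP2B, on chromosome 6 at 50786439 to 50815326 of hg19, stayed under the filter and was listed at 0 to 0.201 FPKM. It had 0.118, 0.161 and 0.0927 FPKM in naive RUES-2, against 0.0124, 0.0151 and 0.0226 FPKM in primed RUES-2. Naive H9 had 0.162, 0.201 and 0.164 FPKM, against 0, 0.0963 and 0 FPKM in primed H9. The naive libraries were above the primed libraries in both lines, and in 5 primed libraries the lower confidence bound was 0. In a fit without the filter the differences were 0.14 in libraries labelled RUES-2 (adjusted p = 0.0127 by limma) and 0.19 in H9 (0.00359), at a level of at most 31 fragments per library.

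FPKM is scaled per length, so levels of the 3 paralogs can be set side by side. Their sum was 21.2 ± 1.88 FPKM in naive RUES-2 and 14.3 ± 4.09 FPKM in primed RUES-2, and 20.3 ± 1.73 FPKM in naive H9 and 5.12 ± 3.55 FPKM in primed H9 (SD, n = 3 each). TFAP2C made up 86.1% ± 4.79 of it in naive RUES-2 and 74.9% ± 3.5 in primed RUES-2. In H9 its share was 89.8% ± 4.28 in the naive and 91.3% ± 11.5 in the primed libraries. TFAP2A had its largest share in primed RUES-2, 21.5% to 28.6% per library, where no library of naive RUES-2 passed 18.7%. TFAP2C thus had the largest share of this sum in every library, and the libraries differed in how much TFAP2A stood beside it. The sum leaves out TFAP2E, another AP-2 gene, which averaged 2.61 ± 1.41 FPKM in naive RUES-2 (SD, n = 3) and in replicate 2 of that group, at 4.22 FPKM, was above TFAP2A.

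**Figure D2:**
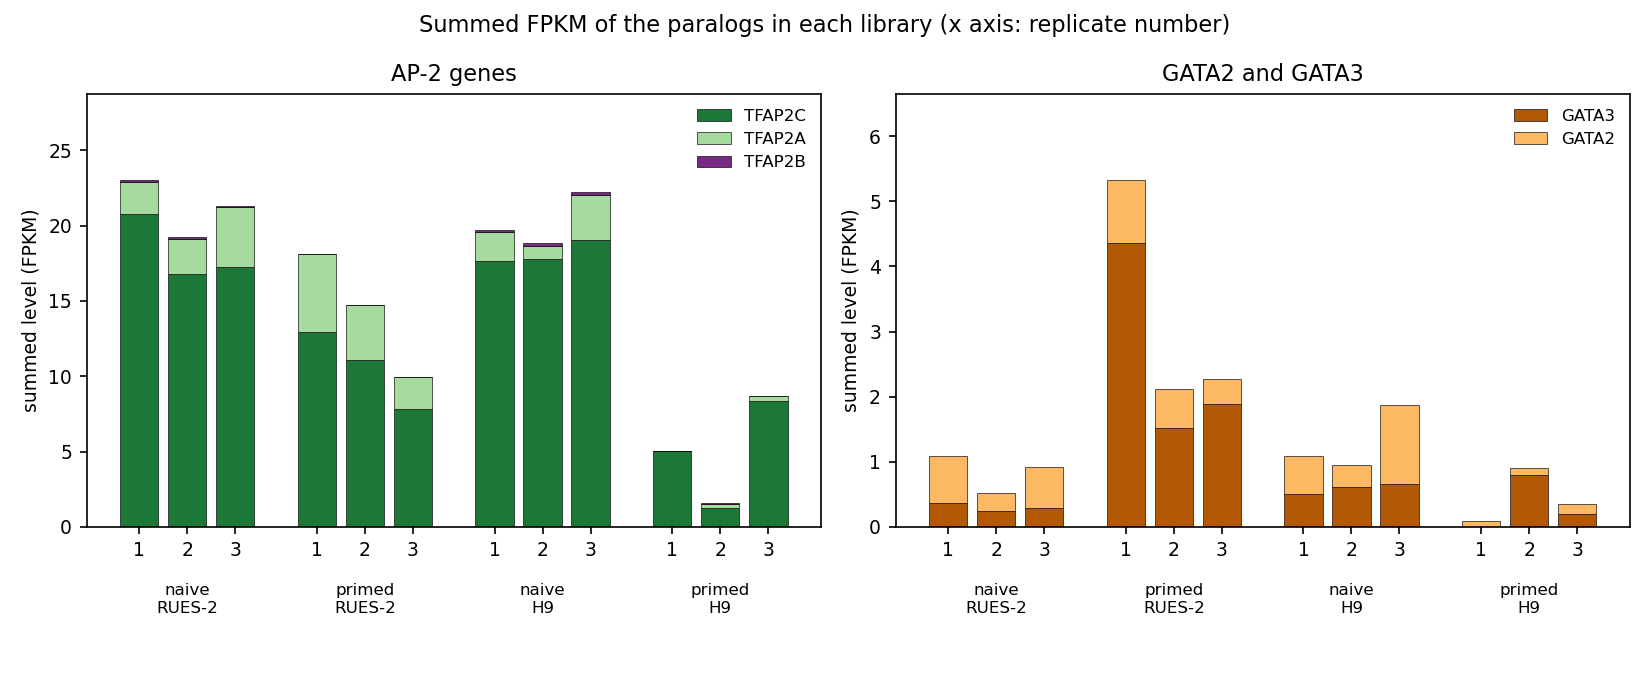
Summed FPKM (y axis, linear from 0) of TFAP2A, TFAP2B and TFAP2C (left panel) and of GATA2 and GATA3 (right panel) in each library (x axis, replicates 1 to 3 of each group), with the stacked segments giving each gene. TFAP2C is the largest segment of every AP-2 bar, and GATA3 is the larger segment in the primed RUES-2 libraries, whose GATA sums of 2.12 to 5.32 FPKM are the highest.

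GATA3, a zinc finger factor that opens trophoblast genes, went against HAND1 in libraries labelled RUES-2. It lies on chromosome 10, at 8096667 to 8117164 of hg19. It had 0.374, 0.244 and 0.295 FPKM in naive RUES-2, against 4.37, 1.52 and 1.88 FPKM in primed RUES-2. In naive H9 it had 0.503, 0.613 and 0.659 FPKM, against 0, 0.798 and 0.194 FPKM in primed H9. The primed RUES-2 libraries were above all other 9 libraries, and the states of H9 overlapped. GATA3 fell by 1.38 in libraries labelled RUES-2 (SE 0.273, adjusted p = 0.0022 by limma) and differed by 0.30 in H9 (95% interval -0.30 to 0.91, adjusted p = 0.395).

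The state change of GATA3 differed between the lines by -1.68 (SE 0.386, adjusted p = 0.0326 by limma). That call ended without any 1 naive library (adjusted p 0.0568 to 0.0864), without primed H9 replicate 1 (0.0623) or 3 (0.0605) and with the replicate number as a block (0.0601), in a range of 0.0181 to 0.0864. GATA3 reached 1 FPKM only in the primed RUES-2 libraries, so without any 1 of them it missed the filter and had no value. Having entered the test in that way it had to differ, and its calls are a description. The fall in libraries labelled RUES-2 held under all 18 alternatives in which it was tested (adjusted p 0.0013 to 0.00937).

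GATA2, a related factor of trophoblast and blood progenitors on chromosome 3 at 128198265 to 128212030 of hg19, reached 1 FPKM in 1 library and was not tested under the filter. It had 0.715, 0.278 and 0.63 FPKM in naive RUES-2, against 0.957, 0.592 and 0.384 FPKM in primed RUES-2. It had 0.591, 0.331 and 1.21 FPKM in naive H9, against 0.0925, 0.102 and 0.164 FPKM in primed H9. As for TFAP2A, the states overlapped in RUES-2 and did not in H9, with primed H9 lowest. In the fit without the filter the differences were -0.09 (adjusted p = 0.755 by limma) in libraries labelled RUES-2 and 0.58 (0.0394) in H9. Of the summed GATA2 and GATA3 level, GATA3 took 37.6% ± 7.97 in naive RUES-2 and 79.0% ± 6.1 in primed RUES-2, (SD, n = 3 each). In H9 it took 35.3% to 64.9% in the naive and 0% to 88.7% in the primed libraries.

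ISL1 and NR2F2 rose in libraries labelled RUES-2. ISL1, a LIM homeodomain factor of heart and limb progenitors that also marks primate amnion, lies on chromosome 5 at 50678958 to 50690563 of hg19. It had 2.08, 3.0 and 1.4 FPKM in naive RUES-2, against 0.936, 0.351 and 0.6 FPKM in primed RUES-2. It had 0.269, 0.127 and 0.235 FPKM in naive H9, against 0.0281, 0.398 and 0.0662 FPKM in primed H9. The naive RUES-2 libraries were above all other 9, and the states of H9 overlapped. ISL1 rose by 0.94 in libraries labelled RUES-2 (SE 0.201, adjusted p = 0.0034 by limma) and differed by 0.07 in H9 (95% interval -0.38 to 0.51, adjusted p = 0.808). The difference between the lines, 0.87, was not called (adjusted p = 0.106), while the levels of the naive groups differed by 1.36 (SE 0.201, adjusted p = 0.00169). An overlapping entry, LOC642366, had 0.188 to 0.415 FPKM in naive RUES-2 and did not pass 0.0582 FPKM elsewhere, so part of the ISL1 value is uncertain without strand.

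NR2F2 encodes COUP-TFII, an orphan nuclear receptor of mesenchyme and of trophoblast, and lies on chromosome 15 at 96869157 to 96883492 of hg19. It had 2.31, 4.34 and 1.83 FPKM in naive RUES-2, against 0.738, 0.509 and 0.442 FPKM in primed RUES-2. It had 1.12, 1.21 and 0.493 FPKM in naive H9, against 0.0856, 0.749 and 1.88 FPKM in primed H9. Replicate 2 was the highest naive library in both lines, and primed H9 replicate 3 was above all naive H9 libraries. NR2F2 rose by 1.24 in libraries labelled RUES-2 (SE 0.337, adjusted p = 0.012 by limma) and differed by 0.12 in H9 (95% interval -0.63 to 0.87, adjusted p = 0.8). The difference between the lines, 1.12, was not called (adjusted p = 0.208).

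ELF3, an epithelial ETS factor on chromosome 1 at 201979690 to 201986315 of hg19, was called in neither state comparison. It had 4.15, 2.32 and 2.15 FPKM in naive RUES-2, against 10.1, 3.3 and 6.29 FPKM in primed RUES-2. It had 1.11, 1.44 and 0.997 FPKM in naive H9, against 1.06, 0.818 and 2.48 FPKM in primed H9. The states overlapped in both lines, and primed RUES-2 was the highest group. The difference of -0.90 in libraries labelled RUES-2 narrowly missed the threshold (95% interval -1.67 to -0.13, adjusted p = 0.0546 by limma), and it was called under 4 of 21 alternatives (adjusted p 0.0106 to 0.2). In H9 the difference was -0.12 (95% interval -0.88 to 0.65, adjusted p = 0.812).

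**Figure D3:**
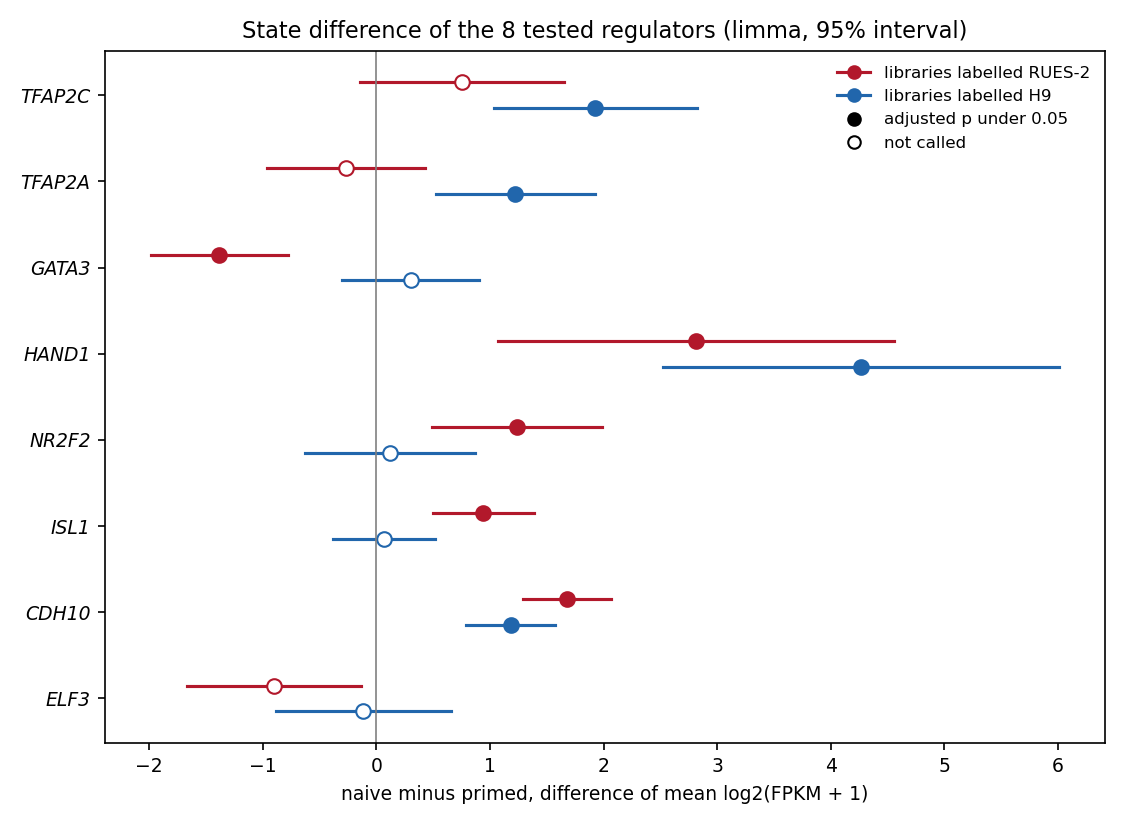
Difference of mean log2(FPKM + 1), naive minus primed (x axis), for the 8 genes tested (y axis), with 95% intervals from limma, red for libraries labelled RUES-2 and blue for H9, and filled points for adjusted p under 0.05. HAND1 has the largest differences, 2.82 and 4.27, and the RUES-2 point of GATA3 is the single called point left of 0, at -1.38.

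The line labels were compared within each state. In the naive state 1 of the 8 genes tested, ISL1, was called between libraries labelled RUES-2 and H9, against 15.9% of all genes (11.2% higher and 4.69% lower in RUES-2). In the primed state 2 were called, against 1.82% of all genes (1.34% higher and 0.471% lower in RUES-2): TFAP2A was higher in primed RUES-2 by 1.90 (SE 0.315, adjusted p = 0.0205 by limma) and GATA3 by 1.40 (SE 0.273, 0.0354). GATA3 entered this comparison only through the primed RUES-2 libraries, and ISL1 that of the naive groups only through naive RUES-2. These counts too are therefore a description. With no filter the adjusted p of GATA3 and ISL1 was 0.0424 and 0.0022 by limma. The same values entered that fit, so it is no separate support. ELF3 just missed the threshold in the primed state, at 1.58 (adjusted p = 0.0507). The TFAP2A call ended in a fit of the primed libraries alone (adjusted p = 0.0808) and without primed H9 replicate 1 (0.066) or primed RUES-2 replicate 1 (0.1), in a range of 0.0176 to 0.1. The GATA3 call ended under 12 of 19 alternatives (adjusted p 0.0211 to 0.263), among them without any 1 naive library, without primed H9 replicate 1 or 3, and without the 3 libraries set apart by the check for exchanged samples (0.0849). Primed RUES-2 thus had the highest mean level of TFAP2A, GATA3 and ELF3, at 3.67 ± 1.52, 2.59 ± 1.55 and 6.57 ± 3.43 FPKM (SD, n = 3).

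Relatives and cofactors of the 10 genes were read next. Counts of these and of every list below stand beside the shares over all genes tested. In libraries labelled RUES-2 23.1% of all genes rose and 23.7% fell, and in H9 20.4% rose and 23.9% fell. A few calls in a short list are therefore only a description. Of 6 tested AP-2 relatives and cofactors, 1 rose and 1 fell in libraries labelled RUES-2, and 3 rose and 1 fell in H9. The risers in H9 were the AP-2 co-activator genes CITED1 (1.36, adjusted p = 0.000494) and CITED2 (1.06, 0.00662) and KCTD15, an inhibitor of AP-2 activity (0.46, 0.0137), and CITED4 fell in both lines (-0.80 and -0.81). TFAP2E had 2.03, 4.22 and 1.58 FPKM in naive RUES-2 and did not pass 0.338 FPKM in any other library. Its state change differed between the lines by 1.51 (adjusted p = 0.0169 by limma). TFAP2E reached 1 FPKM only in the naive RUES-2 libraries, so it had to differ and this value is a description. The same limit applies to list genes that reached 1 FPKM in a single state, among them HAND2, POSTN and KRT7 below. As for ISL1, NR2F2 and CDH10, its highest library was naive RUES-2 replicate 2.

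GATA4 and GATA6, endoderm and heart factors, had higher FPKM than GATA2 and GATA3 in all naive libraries. Of 5 tested GATA relatives and cofactors, 4 rose and 0 fell in libraries labelled RUES-2, and 2 rose and 0 fell in H9. GATA4 had 11.4, 6.4 and 10.8 FPKM in naive RUES-2, against 3.91, 4.2 and 3.07 FPKM in primed RUES-2, and it rose by 1.13 there (adjusted p = 0.00509 by limma) and also in H9 (adjusted p = 0.000112). GATA6 rose by 1.48 in H9 (adjusted p = 0.00537) and by 0.93 in libraries labelled RUES-2 (0.0439), where the call ended under 10 of 22 alternatives, among them without naive RUES-2 replicate 1 or 3, any 1 primed RUES-2 library, or replicate 1 of naive or primed H9 (adjusted p 0.0204 to 0.162). Of 9 tested relatives of the other genes, 5 rose and 0 fell in libraries labelled RUES-2, and 3 rose and 1 fell in H9. NR2F1, the paralog of NR2F2, had 5.42, 11.7 and 5.19 FPKM in naive RUES-2, against 0.042 to 0.173 FPKM in primed RUES-2, and its state change differed between the lines by 2.15 (adjusted p = 0.00816). HAND2, the paralog of HAND1, rose by 1.32 in libraries labelled RUES-2 (0.00212) and by 1.89 in H9 (0.000263), to at most 5.79 FPKM.

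BMP and WNT signals are known to induce several of the 10 genes during early differentiation. BMP4, the ligand used to make trophoblast-like and amnion-like cells, had 23.0, 15.1 and 31.0 FPKM in naive RUES-2, against 18.1, 9.83 and 13.3 FPKM in primed RUES-2. It had 36.1, 20.9 and 56.2 FPKM in naive H9, against 4.57, 6.04 and 4.45 FPKM in primed H9. It rose in H9 by 2.59 (adjusted p = 0.000254 by limma), and the difference of 0.69 in RUES-2 was not called (0.134). Of 11 tested BMP ligands, receptors and SMADs, 3 rose and 1 fell in libraries labelled RUES-2, with a median difference of 0.22 against 0.01 over all genes. In H9, 2 rose and 2 fell, with a median of 0.09 against -0.01. SMAD4, the shared mediator of BMP and TGF-beta signals, fell in both lines (-0.71, adjusted p = 0.000201, and -0.68, adjusted p = 0.000296).

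Of 6 tested BMP inhibitors, 3 rose and 1 fell in libraries labelled RUES-2, and 3 rose and 0 fell in H9. FST, which encodes the secreted antagonist follistatin, rose to 76.9 to 134.1 FPKM in naive RUES-2, against 21.5 to 35.9 FPKM in primed RUES-2, and to 243.3 to 248.1 FPKM in naive H9, against 16.0 to 34.2 FPKM in primed H9. NOG, which encodes the antagonist noggin, fell by 0.75 in libraries labelled RUES-2 (adjusted p = 0.00215 by limma) and rose by 0.61 in H9 (0.00763), and this difference between the lines was called (-1.35, adjusted p = 0.00582). NOG was low throughout, at 0.0836 to 1.8 FPKM. Of the 6 BMP targets, MSX1 rose and ID1 and ID4 fell in libraries labelled RUES-2, while MSX1, MSX2 and ID2 rose in H9. The ID1 call (adjusted p = 0.0144) ended without naive RUES-2 replicate 2 (0.0563) or primed RUES-2 replicate 1 (0.0567), in a range of 0.00198 to 0.0567. The ID4 difference was -1.95 (adjusted p = 0.000615), and ID4 had 0.828 to 2.18 FPKM in naive RUES-2, against 4.97 to 11.5 FPKM in primed RUES-2.

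WNT and beta-catenin targets rose in 12 of 14 cases in libraries labelled RUES-2 and in 14 of 14 in H9, with median differences of 2.08 and 2.95. The shares of all genes tested that rose were 23.1% and 20.4%. SP5, a direct target, had 53.6 to 78.1 FPKM in naive RUES-2, against 1.87 to 5.38 FPKM in primed RUES-2, and 85.3 to 111.4 FPKM in naive H9, against 0.477 to 8.5 FPKM in primed H9. CDX2, the trophectoderm factor of mouse and also a target of beta-catenin, rose to 2.53 to 7.19 FPKM in naive RUES-2, against 0.0783 to 0.546 FPKM in primed RUES-2 (2.04, adjusted p = 0.00136 by limma). In H9 it rose to 7.95 to 11.9 FPKM in naive cells, against 0 to 1.38 FPKM in primed cells (2.98, adjusted p = 0.000147). Its highest primed library was primed H9 replicate 2, as for HAND1. Whether the GSK3 inhibitor had a part in these differences was not tested.

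Markers of trophoblast were mixed. Of 16 early trophectoderm markers 10 were tested, of which 1 rose and 4 fell in libraries labelled RUES-2 and 4 rose and 5 fell in H9. Among all genes tested 23.1% rose and 23.7% fell in libraries labelled RUES-2, and 20.4% rose and 23.9% fell in H9. KRT7, a keratin of trophoblast, had 0.0999 to 0.625 FPKM in naive RUES-2, against 5.87 to 8.91 FPKM in primed RUES-2, and 0.16 to 0.207 FPKM in naive H9, against 3.46 to 4.1 FPKM in primed H9. KRT7 and the claudin gene CLDN4 thus fell in both lines (adjusted p from 1.74e-06 to 0.00424 by limma), unlike HAND1 and CDX2. KRT8, another keratin of the list, went the other way in H9, where it rose by 1.49 (adjusted p = 0.00287 by limma). It had 352.9 to 523.4 FPKM in naive H9, against 121.7 to 177.5 FPKM in primed H9. The KRT8 difference of 0.66 in libraries labelled RUES-2 was not called (adjusted p = 0.0966). The early trophoblast genes ELF5 and VGLL1 did not pass 0.0322 and 0.479 FPKM in any library.

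Genes of differentiated trophoblast were mostly near 0. Of 14 such markers found, 3 were tested, of which PGF, a placental growth factor gene, rose and SDC1 fell in libraries labelled RUES-2, and 0 rose and 1 fell in H9. The PGF call (0.51, adjusted p = 0.0399 by limma) ended under 10 of 21 alternatives (adjusted p 0.018 to 0.139), among them without any 1 naive RUES-2 library, primed RUES-2 replicate 2 or naive H9 replicate 1. The hormone gene CGA did not pass 0.427 FPKM and the syncytial regulator GCM1 did not pass 0.0945 FPKM in any library, and PSG3 was listed at 0 in all 12. SDC1, a syndecan of the syncytiotrophoblast that other epithelia also express, fell in both lines (-1.24, adjusted p = 0.000457, and -0.88, adjusted p = 0.00371). The summed level of the list was 8.35 to 12.1 FPKM in naive RUES-2 and 17.4 to 21.5 FPKM in primed RUES-2, and 11.7 to 12.3 FPKM in naive H9 and 18.8 to 25.6 FPKM in primed H9. Most of the primed sums was SDC1 alone, with 11.9 to 16.2 FPKM in primed RUES-2 and 14.0 to 22.0 FPKM in primed H9.

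Of 8 amnion markers 4 were tested, and of these POSTN rose and IGFBP3 fell in libraries labelled RUES-2, while POSTN, BMP4 and ID2 rose in H9. POSTN, which encodes periostin of the extracellular matrix, rose by 1.69 in libraries labelled RUES-2 (adjusted p = 0.000772 by limma) and by 1.68 in H9 (0.000864). The IGFBP3 call (adjusted p = 0.0398) ended under 8 of 22 alternatives (adjusted p 0.00361 to 0.147), among them without naive RUES-2 replicate 1 or 2, primed RUES-2 replicate 2 or 3, or naive H9 replicate 1 or 2. GABRP and VTCN1, markers that set amnion apart from mesoderm, were not tested. GABRP had 0.0321 to 0.574 FPKM in naive RUES-2, against 0.189 to 2.66 FPKM in primed RUES-2, and 0.19 to 0.348 FPKM in naive H9, against 0.613 to 1.02 FPKM in primed H9. VTCN1 did not pass 0.602 FPKM in any library, and its highest value was in primed RUES-2 replicate 3, as for GABRP.

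Other cell types use HAND1, TFAP2A, GATA3 and ISL1 as well, and their markers were counted in the same way, with BMP4, CDX2, DPPA3, ELF5, HAND2, ID2, MIXL1, MSX1, SNAI2, T and TFCP2L1 each in more than 1 list. Of 11 tested mesoderm markers, 9 rose and 1 fell in libraries labelled RUES-2, and 9 rose and 0 fell in H9. Over all genes tested the shares were 23.1% and 23.7% in libraries labelled RUES-2 and 20.4% and 23.9% in H9. Their summed level was 105.1 to 168.6 FPKM in naive RUES-2 and 14.0 to 36.4 FPKM in primed RUES-2, and 115.8 to 146.1 FPKM in naive H9 and 17.5 to 40.2 FPKM in primed H9. MIXL1, T and EOMES of the primitive streak and SNAI2 were the largest risers, and the highest level among them was that of MIXL1 in naive RUES-2 replicate 1, 91.0 FPKM. Of 9 tested neural crest markers, 5 rose and 3 fell in each line. TWIST1 rose more in libraries labelled RUES-2 (18.3 to 23.5 FPKM in naive RUES-2, against 0.331 to 0.573 FPKM in primed RUES-2) than in H9 (difference 2.51, adjusted p = 0.00816 by limma), a call that ended with a pseudocount of 0.1 (adjusted p = 0.0795, in a range of 0.000806 to 0.0795). FOXD3, which marks neural crest and also primed pluripotency, fell in both lines, and SOX10, the defining crest factor, did not pass 0.459 FPKM in any naive library.

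Of 11 tested fibroblast markers, 6 rose and 1 fell in libraries labelled RUES-2, and 7 rose and 1 fell in H9. The gene that fell was THY1, a surface marker of fibroblasts and of primed stem cells, with 6.91 to 16.6 FPKM in naive RUES-2, against 51.1 to 107.3 FPKM in primed RUES-2, and it fell in H9 too (adjusted p = 0.000306 by limma). The summed level of the list was 275 to 1288 FPKM in naive RUES-2 and 169.4 to 288.3 FPKM in primed RUES-2, and 449.2 to 795.5 FPKM in naive H9 and 148.2 to 264.1 FPKM in primed H9, so that the states overlapped in RUES-2 and not in H9. COL3A1 and LUM, matrix genes of fibroblasts and mesenchyme, were highest in naive RUES-2 replicate 3, at 445.3 and 207 FPKM. Within naive RUES-2 that library was also highest for HAND1 and TFAP2A but lowest for ISL1 and NR2F2. The part of stromal or mesoderm-like cells in the differences of HAND1, NR2F2, ISL1 and CDH10 was not tested.

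Of 6 tested surface ectoderm markers, 1 rose and 3 fell in each line. Over all genes tested 23.1% rose and 23.7% fell in libraries labelled RUES-2, and 20.4% rose and 23.9% fell in H9. The basal keratinocyte genes TP63, KRT5 and KRT14 did not pass 0.16, 0.832 and 0.145 FPKM in any library. The epithelial genes CDH1, EPCAM and GRHL2 fell in both lines, CDH1 to 7.47 to 13.9 FPKM in naive RUES-2, against 71.2 to 82.9 FPKM in primed RUES-2. GRHL3 went the other way in H9, where it rose by 1.95 (adjusted p = 0.000304 by limma). It had 4.45 to 5.69 FPKM in naive H9, against 0.425 to 0.978 FPKM in primed H9. The GRHL3 difference of -0.11 in libraries labelled RUES-2 was not called (adjusted p = 0.773). Of 6 tested germ cell markers, which matter for TFAP2C, 2 rose and 1 fell in libraries labelled RUES-2 and 1 rose and 2 fell in H9. PRDM1, a partner of TFAP2C in germ cells, rose in both (1.68, adjusted p = 0.000104 by limma, and 1.93, adjusted p = 4.43e-05), while NANOS3 did not pass 0.254 FPKM in any library. KIT fell in both (-1.46, adjusted p = 0.000502 by limma, and -0.96, adjusted p = 0.00636). SOX17 rose in libraries labelled RUES-2 (0.79, adjusted p = 0.019) and fell in H9 (-0.69, adjusted p = 0.0368). Its difference between the lines was called (1.49, adjusted p = 0.0303). Of 12 core pluripotency genes 11 fell and 1 rose in libraries labelled RUES-2, and 7 fell and 0 rose in H9, and of 9 tested naive markers 4 and 6 rose and 0 fell.

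**Figure D4:**
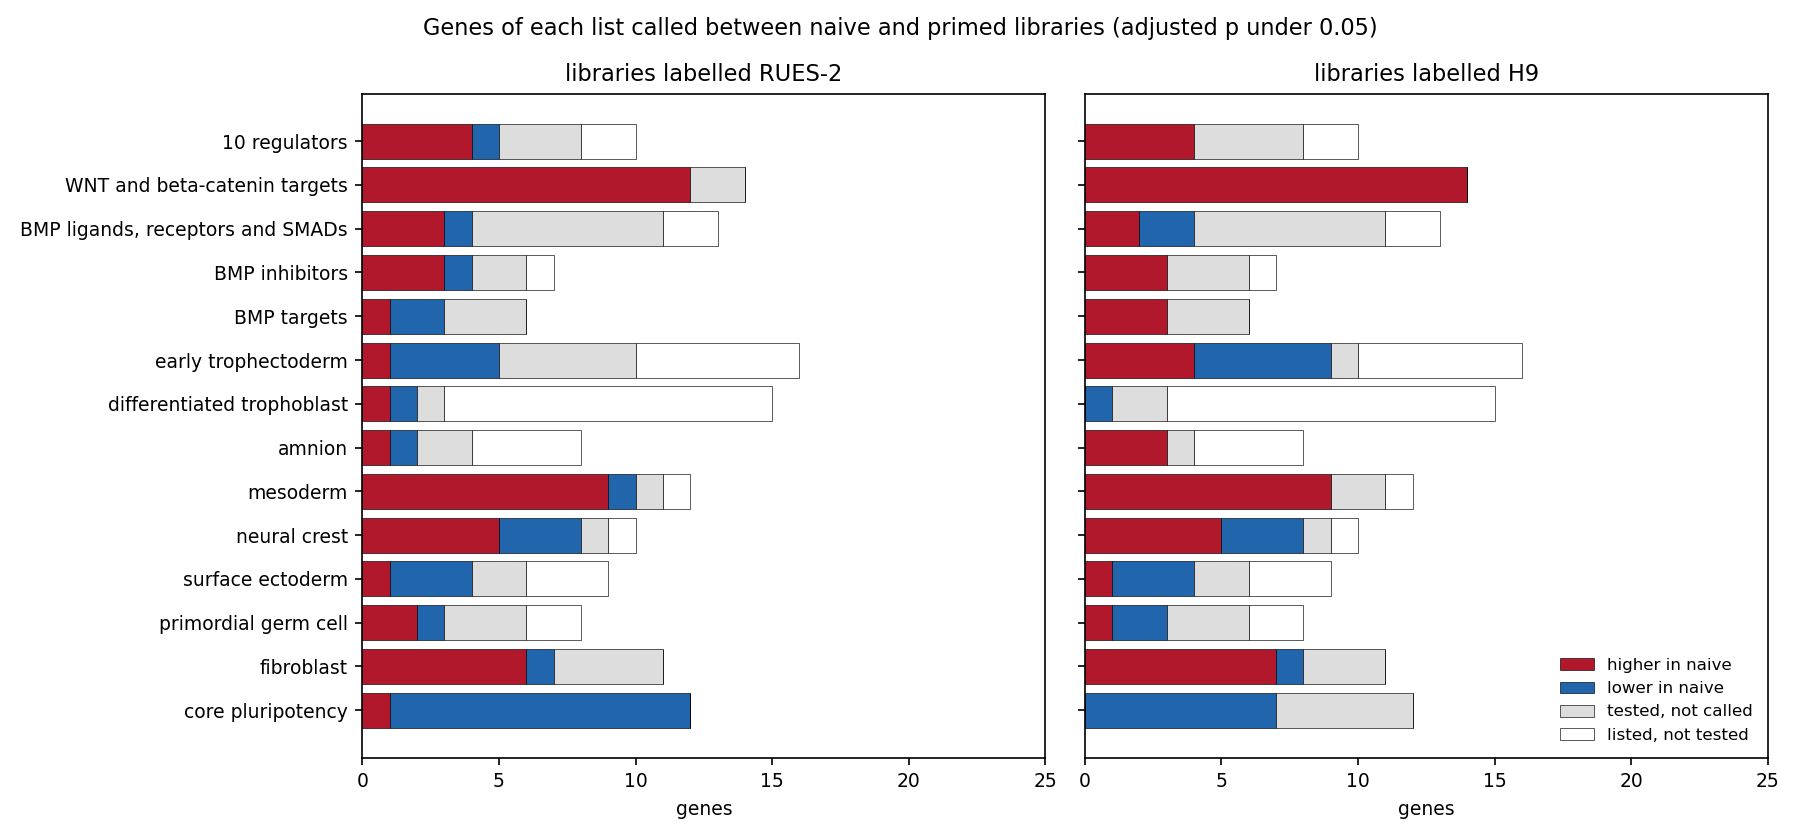
Number of genes (x axis) of each list (y axis) that were higher in naive (red) or lower in naive (blue) at adjusted p under 0.05, tested but not called (grey) or listed but not tested (white), for libraries labelled RUES-2 (left) and H9 (right). All or nearly all tested WNT and beta-catenin targets are red, while only 3 differentiated trophoblast markers and 4 amnion markers were tested.

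For each of the 8 tested genes the 3 genes of most similar profile were found by the root mean square difference of log2(FPKM + 1), centred per gene, over the 12 libraries, among 10224 genes that averaged 5 FPKM or more in some group. These genes were picked for their likeness over these same libraries. Their calls and shared extremes, here and in the next paragraph, largely follow from that choice and are only a description. Nearest to HAND1 were MSX1 (0.555), IGF2 (0.567) and HOXB2 (0.623), beside a root mean square of HAND1 itself of 2.02. MSX1 is a homeobox target of BMP, IGF2 an imprinted growth factor gene and HOXB2 a homeobox gene of a HOX cluster. All 3 rose in both lines (adjusted p from 1.17e-05 to 0.00274 by limma), and all 3 shared with HAND1 a maximum in replicate 3 of each naive group and in replicate 2 of primed H9. The profiles of FAM20A (0.224), PRODH (0.375) and NEAT1 (0.377) were nearest to TFAP2C, and all 3 had their lowest value in primed H9 replicate 2, as TFAP2C had. GRHL3 (0.337), an epidermal transcription factor gene, was nearest to TFAP2A, and its state change differed between the lines (-2.06, adjusted p = 0.0143).

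Nearest to ISL1 were JTB (0.219), TOR3A (0.228) and MTX1 (0.24), and nearest to NR2F2 were UHMK1 (0.268), KAZN (0.295) and ZNF695 (0.295). All 6 lie on chromosome 1, whereas ISL1 lies on chromosome 5 and NR2F2 on chromosome 15. The share of all eligible genes on chromosome 1 was not counted, and a link to that chromosome was not tested. On this scale a gene of low level can lie near an abundant gene of smaller fold change, as ISL1 near JTB (37.9 to 130 FPKM). These 6 rose in libraries labelled RUES-2 (adjusted p from 0.000103 to 0.00496 by limma), and in H9 only TOR3A was called (0.38, adjusted p = 0.0343), a call that ended with the replicate number as a block and without any 1 naive H9 library or primed H9 replicate 1 or 3 (adjusted p 0.0132 to 0.11). Among the nearest to CDH10 were PIGH (0.201) and SLC35F6 (0.216), which rose in both lines. GATA3 was nearest to PLEKHH3 (0.299), CXCL12 (0.316) and ZNF826P (0.34), which fell in libraries labelled RUES-2 (adjusted p from 1.66e-05 to 0.00258) and were not called in H9. ELF3 had the loosest match beside its own root mean square of 0.778, to TJP3 (0.424), a tight junction gene, PDLIM1 (0.427) and SOX15 (0.428).

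**Figure D5:**
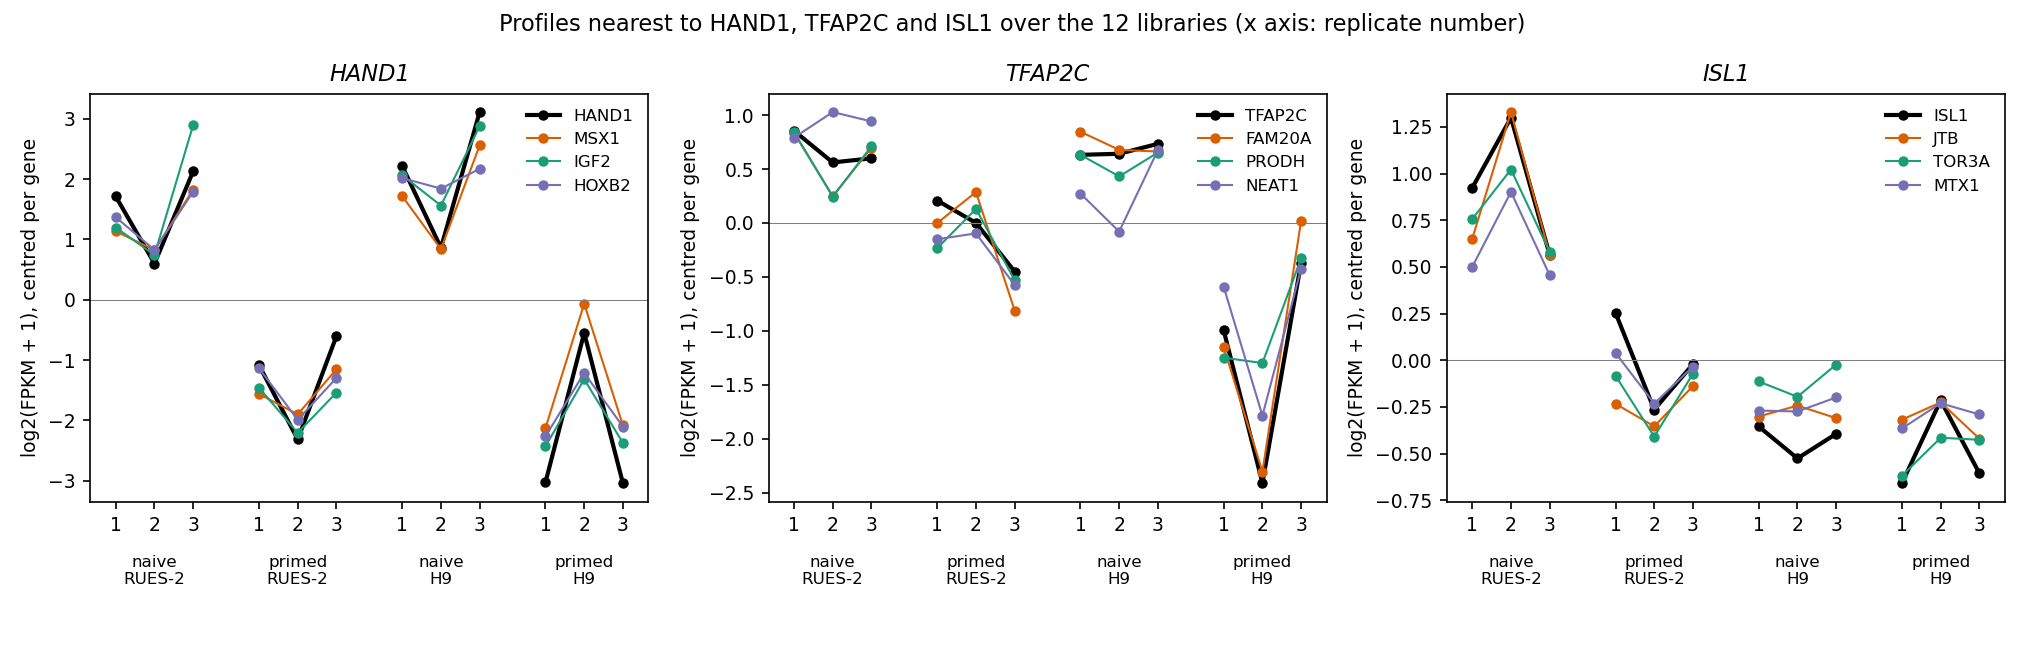
log2(FPKM + 1), centred per gene (y axis), of HAND1, TFAP2C and ISL1 (black) and of their 3 nearest profiles (colours) in the libraries of each group (x axis, replicates 1 to 3, which have no order, so lines only join the points of 1 gene). HAND1 and its neighbours dip in replicate 2 of both naive groups, and ISL1 and its neighbours peak in naive RUES-2 replicate 2.

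Libraries of 1 group therefore differed in which of the 10 genes they held most of. In naive H9, replicate 3 had 72.7 FPKM of HAND1, 3.01 of TFAP2A and 1.21 of GATA2, its group's highest values, and 0.493 FPKM of NR2F2, its lowest. Naive RUES-2 replicate 2 had the highest NR2F2, ISL1 and CDH10 of its group and the lowest HAND1, TFAP2C, GATA2 and GATA3. In primed H9, replicate 2 had the highest HAND1, GATA3, ISL1, CDH10 and TFAP2B and the lowest TFAP2C, while replicate 1 was listed at 0 for TFAP2A, TFAP2B and GATA3. Replicate 1 was also the shallowest library of all, with 0.677 of the mean depth. The levels of TFAP2B, of at most 0.201 FPKM, rested on 1 to 31 fragments where above 0, as estimated from the confidence bounds.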

How the data were processed

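Per the labels' protocols, RNA was extracted with TRIzol and RNeasy columns and made into libraries with an Illumina TruSeq kit. The submitters' processing notes name TopHat2 2.1.1, bcl2fastq 2.17.1.14 and the build hg19. The FPKM program, annotation and strand setting: not given in the sources used here. Values are FPKM with confidence bounds per the file headers (the design text says RPKM), as deposited by the authors, with 25278 entries per table. For 554 symbols with several loci the locus of highest mean was used.

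A linear model over the 4 groups was fitted with limma 3.58.1 (R 4.3.3) to log2(FPKM + 1) of 14429 genes that reached 1 FPKM in 3 or more libraries. Tests were two-sided, with Benjamini-Hochberg adjustment over all genes, and the procedure was tested on simulated data. No read counts were used: depth was estimated from the bounds, read as 2 SD, over 11196 genes. Tables and figures were made with Python 3.11.15, numpy 2.4.6, pandas 2.3.3 and matplotlib 3.10.9.

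The 10 genes and all lists were chosen with earlier results of these data known. From each list, up to 4 genes called in either line with the largest mean change were named, with the 3 nearest profiles of each gene; other genes named were chosen after their values were seen. Some genes that this rule or the lists hold are not reported here. Alternatives covered the pseudocount, the filter, scaling, loci, a replicate block, fits of only the groups compared and leaving out libraries. Promoters are from RefSeq (GRCh38.p14) and were read from a table, with no conversion between builds.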

Additional observations from a re-analysis of the deposited data

Results flagged for a closer look

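The change of GATA3 between the states differed between the lines by the test of that difference, at -1.68 (adjusted p = 0.0326 by limma). GATA3 entered the test only through the primed RUES-2 libraries, so it had to differ and this value is a description. GATA3 averaged 0.304 ± 0.0654 FPKM in naive RUES-2 and 2.59 ± 1.55 FPKM in primed RUES-2, and 0.591 ± 0.0800 FPKM in naive H9 and 0.331 ± 0.416 FPKM in primed H9 (SD, n = 3 each). The call ended under 9 of 17 alternatives (adjusted p 0.0181 to 0.0864), and the RUES-2 side of the difference rests on libraries of which 3 did not match the others of their line label.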

How the results depend on the processing

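Of 819 differences of the 8 tested genes under an alternative, 766 kept their direction and their side of the threshold. With a pseudocount of 0.1, 1 of the 10 genes was called between the primed groups. With a filter of 5 FPKM fewer genes were tested, and of the 10 genes only TFAP2C and HAND1 were among them. Of these 1 was called between the states of RUES-2, 2 between those of H9 and 0 in the other comparisons. The remaining genes, GATA3, TFAP2A and ISL1 among them, had no value there, so their calls were not put to this filter. All genes called then numbered 424 for the difference between the lines, 1469 between the naive and 102 between the primed groups. With the replicate number as a block, 0 of the 10 were called for the difference between the lines, 2 between the naive groups (ISL1 and also CDH10, at 0.48 with adjusted p = 0.0281, in a range of 0.0281 to 0.486 over its alternatives) and 1 between the primed groups, where 170 genes in all were called. The numbers did not pair the libraries: 2 of 12 same-numbered pairs had a correlation over 0.1 (-0.0537 to 0.136). With only the groups compared, 3 of the 10 were called between the naive groups and 0 between the primed groups (30 genes in all). Without the 3 libraries that did not match, 1 was called between the primed groups (94 genes in all). The causes were not tested.

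Leaving out 1 library gave 5514 to 7224 genes and 4 to 6 of the 10 for the states of RUES-2, 5016 to 6645 and 4 to 4 for those of H9, and 379 to 861 and 0 to 1 for the difference between the lines. It gave 1179 to 2814 and 0 to 2 between the naive groups, and 44 to 385 and 0 to 3 between the primed groups.

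Differences that changed sign were not called. Between the naive groups TFAP2C was at -0.0198 with median-of-ratios scaling and -0.12 when scaled to loci of 300 bp or longer, and lay between -0.0887 and 0.0582 without 1 library. Between the states of H9, ELF3 was at 0.0684 with quantile normalization, and without 1 library it lay between -0.302 and 0.167, ISL1 between -0.0146 and 0.207 and NR2F2 between -0.23 and 0.473. Between the primed groups CDH10 lay between -0.181 and 0.0963 and NR2F2 between -0.525 and 0.177 without 1 library.

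Low levels limit TFAP2B, CDH10, HAND1 and ISL1, whose lower confidence bound was 0 in 5, 4, 2 and 2 libraries. They also limit TFAP2A, GATA2, GATA3 and NR2F2, each with such a bound in 1 library, which for GATA3 was primed H9 replicate 1. The median over all libraries was 0.488 FPKM for GATA2 and 0.558 FPKM for GATA3.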
